A study of Mus musculus with 47 samples.

Results

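The 35 genes described here build cholesterol and long-chain fatty acids, or control and move these lipids. They comprise 18 genes of sterol synthesis, 9 genes of fatty acid synthesis, 5 regulators of the sterol response and 3 genes of sterol traffic and efflux. Each gene was read from a probe set annotated with its symbol alone, and where several remained, from the probe set with the highest mean signal over all arrays. Of the 12393 genes measured in this way, 33 belonged to the list. Acat2 and Insig1, an acetyl-CoA acetyltransferase and a sterol-sensing retention protein of the endoplasmic reticulum, had no such probe set and were not analysed here. The 30% of genes with the lowest mean were left out of the tests, which set a limit of 4.349 on the log2 scale and left 8675 genes. Of the 33 measured genes, 32 were tested, comprising 17 of sterol synthesis, 8 of fatty acid synthesis, 4 regulators and 3 of traffic and efflux. Acss2, an acetyl-CoA synthetase, averaged 4.22 and fell below the limit.

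Cholesterol is made from acetyl-CoA through mevalonate and farnesyl diphosphate to squalene, lanosterol and finally cholesterol. When the sterol content of the endoplasmic reticulum is low, the escort protein SCAP carries the membrane-bound SREBP transcription factors to the Golgi, where they are cut free, and when it is high, INSIG proteins hold SCAP back. The SREBP-2 protein, encoded by Srebf2, acts mainly on sterol genes, and the SREBP-1 proteins, encoded by Srebf1, act more on fatty acid genes. Both act together with other factors, among them NF-Y, which binds the CCAAT box, and Sp1, which binds GC-rich boxes.

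The cells were JB6, a mouse epidermal line that the labels call progenitor cells, cultured in serum-supplemented medium. They had been stably transduced with a retroviral shRNA against AnxA2, which encodes the membrane-binding protein annexin A2, or with the vector alone, and both lines had been selected with puromycin. Each line was exposed to X-rays at 10 or 100 cGy and collected 2, 6 or 24 h later, and untreated, sham-handled cells of each line were collected at 2 and 24 h. This gave 16 groups on 47 Affymetrix arrays, of which 15 groups had 3 arrays and the vector group at 10 cGy and 24 h had 2, its replicates 1 and 3. Each line was a single selected population, so the shRNA and any other difference between the populations cannot be told apart. The labels do not say whether replicates were separate cultures, so the p-values measure the spread between these samples, which may be technical. RNA came from whole cultures, in which fewer cells of a type and less RNA per cell cannot be told apart.

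Promoter windows of 5 genes are printed because the CCAAT box was found in every tested sterol synthesis gene with a window, and because these genes stand for the groups of results that follow. Idi1, Lss and Hmgcs1 are sterol genes whose signal was higher at 24 h, Insig2 is a regulator that moved with them, and Fasn is a fatty acid gene that did not rise. Each window runs from 250 bases before to 50 bases after an annotated start site, 5' to 3' on the gene's own strand. The windows were taken from RefSeq on the build GRCm38.p6. Where a gene had several windows, the one nearest the 5' end of the gene was printed. The start site is at that end for Idi1 and Hmgcs1 but not for Lss, Insig2 and Fasn. The Fasn window lies inside the gene, whose 5' end is at chr11:120825166. The windows lie at chr13:8885356-8885655 (+) for Idi1, chr10:76531355-76531654 (+) for Lss, chr13:119690101-119690400 (+) for Hmgcs1, chr1:121332540-121332839 (-) for Insig2 and chr11:120824498-120824797 (-) for Fasn. Capitals mark CCAAT on the printed strand, its reverse complement ATTGG, and the sterol regulatory element motif TCACNCCAC.
Idi1: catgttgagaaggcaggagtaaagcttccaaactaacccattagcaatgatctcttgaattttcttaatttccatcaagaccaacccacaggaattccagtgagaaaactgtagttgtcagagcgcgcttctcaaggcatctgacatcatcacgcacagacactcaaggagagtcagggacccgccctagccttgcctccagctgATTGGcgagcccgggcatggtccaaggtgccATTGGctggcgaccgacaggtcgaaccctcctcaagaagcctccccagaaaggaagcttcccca
Lss: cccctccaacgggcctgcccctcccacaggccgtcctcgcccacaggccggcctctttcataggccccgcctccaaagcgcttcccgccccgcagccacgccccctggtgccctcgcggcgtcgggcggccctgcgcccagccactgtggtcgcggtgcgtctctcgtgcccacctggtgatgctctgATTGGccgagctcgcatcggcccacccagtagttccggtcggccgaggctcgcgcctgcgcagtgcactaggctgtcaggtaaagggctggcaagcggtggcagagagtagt
Hmgcs1: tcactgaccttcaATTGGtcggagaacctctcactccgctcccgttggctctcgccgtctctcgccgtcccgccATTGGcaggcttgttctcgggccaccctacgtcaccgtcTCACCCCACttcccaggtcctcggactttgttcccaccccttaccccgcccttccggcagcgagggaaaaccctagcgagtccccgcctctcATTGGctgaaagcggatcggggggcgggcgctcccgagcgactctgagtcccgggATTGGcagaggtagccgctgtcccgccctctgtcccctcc
Insig2: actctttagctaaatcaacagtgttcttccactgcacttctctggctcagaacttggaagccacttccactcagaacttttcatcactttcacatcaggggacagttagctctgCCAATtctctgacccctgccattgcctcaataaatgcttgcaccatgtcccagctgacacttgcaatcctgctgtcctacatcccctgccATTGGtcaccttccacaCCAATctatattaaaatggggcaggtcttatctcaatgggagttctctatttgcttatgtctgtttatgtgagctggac
Fasn: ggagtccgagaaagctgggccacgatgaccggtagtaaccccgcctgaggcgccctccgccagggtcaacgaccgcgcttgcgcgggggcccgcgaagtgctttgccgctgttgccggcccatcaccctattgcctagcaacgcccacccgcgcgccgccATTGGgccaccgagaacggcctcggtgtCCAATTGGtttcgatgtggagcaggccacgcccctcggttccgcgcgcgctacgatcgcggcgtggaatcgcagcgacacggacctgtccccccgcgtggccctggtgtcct

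Of the 17 tested sterol synthesis genes, 14 had at least 1 window. A gene was counted if any of its windows held the motif on either strand. CCAAT was present in 14 of 14 genes, against 41.1% of all 27025 genes with a window. Pmvk had 2 windows and Dhcr7 had 3, each with CCAAT in 1. Idi1 carried it at positions -45 to -41 and -14 to -10 relative to the start site, and Lss at -62 to -58, each on the opposite strand. In Fasn a CCAAT on the printed strand overlapped another on the opposite strand. CCAAT was present in 2 of 5 fatty acid genes with a window and in 3 of 4 tested regulators. The motif TCACNCCAC, searched on both strands, was found in the Hmgcs1 window at -137 to -129. None of the other 13 sterol genes with a window had it, and 1.44% of all genes with a window did. GGGCGG was present in 13 of 14 sterol genes (38.2% of all genes with a window) and CACGTG in 3 of 14 (8.09%). A match describes letters in the window and is not a measured binding site.

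Anxa2 averaged 10.7 to 11.16 in the shRNA groups and 12.34 to 12.61 in the vector groups, so every shRNA group lay below every vector group. The replicate 3 arrays of vector cells at 2 h stood apart from the other 2 h vector arrays on the second principal component, with -2.37 to 1.75 against -19.56 to -16.91. The difference between the 3' and 5' Gapdh control probe sets, a sign of RNA quality, was 0.309 to 1.06 on 4 arrays and at most 0.173 on all others. Those 4 arrays were shRNA 100 cGy 2 h replicate 2, shRNA 10 cGy 6 h replicate 1, shRNA untreated 2 h replicate 1 and vector untreated 2 h replicate 3. By the mean over all arrays, 3 of 8 epithelial markers were above the low-signal limit (Krt5, Krt14 and Krt8), and Cdh1 and Epcam were below it. Krt14 averaged 6.57 in shRNA cells but 3.84 in vector cells, below the limit of 4.349. Of 7 mesenchymal markers 6 were above the limit. Of 5 measured leukocyte markers 2 were above the limit and Ptprc was not.

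The clearest pattern across the 16 groups was collection time. The mean of the 17 sterol synthesis genes, taken on each array after subtraction of each gene's mean over the 47 arrays, was 0.23 in untreated shRNA cells at 24 h and -0.19 at 2 h, and 0.64 in untreated vector cells at 24 h and -0.11 at 2 h. In irradiated shRNA cells this mean was -0.19 and -0.23 at 2 h, -0.28 and -0.33 at 6 h and 0.15 and 0.14 at 24 h, for 10 and 100 cGy in that order. In irradiated vector cells it was -0.15 and -0.14 at 2 h, -0.21 and -0.20 at 6 h and 0.54 and 0.49 at 24 h. Every 24 h array lay above every 2 h and 6 h array of its line, and the 24 h vector arrays lay above the 24 h shRNA arrays. The SD between replicates of this mean was 0.0473.

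**Figure D1:**
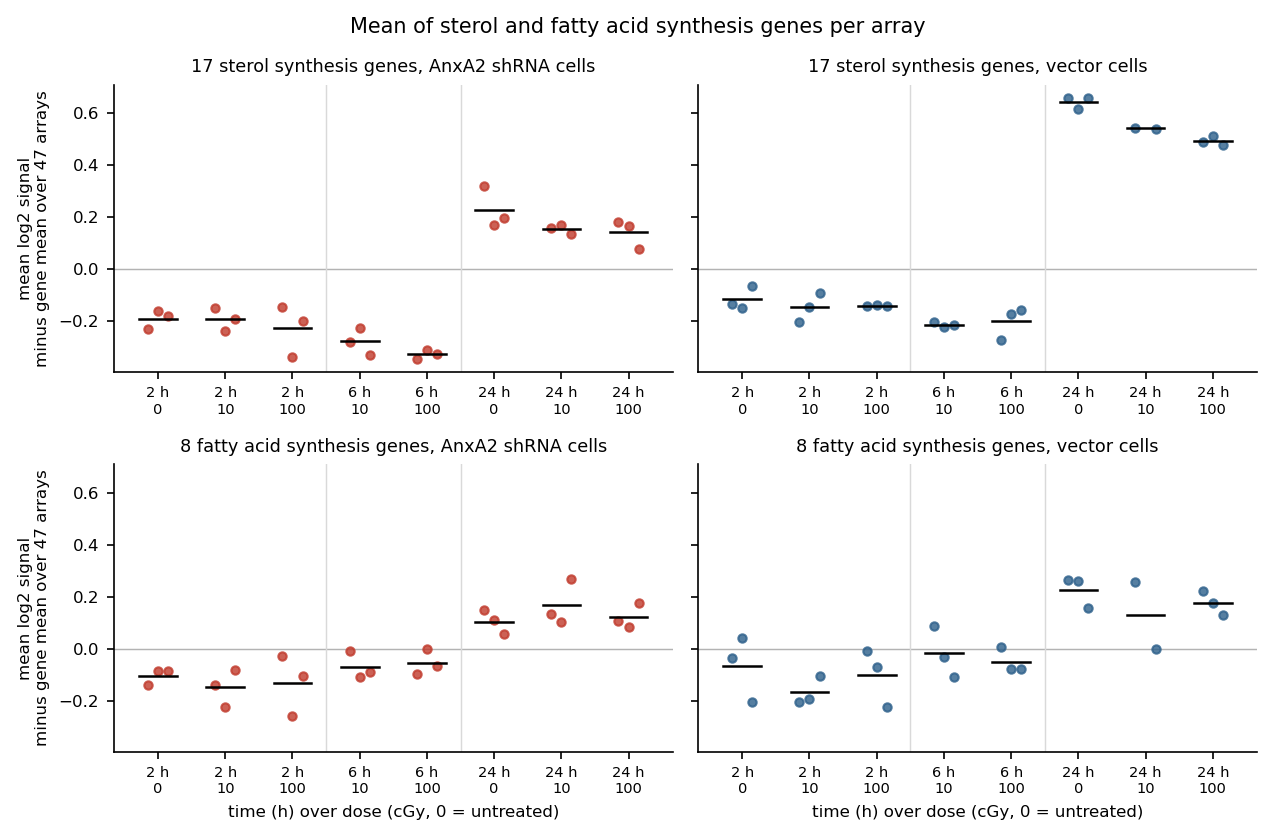
Mean log2 signal of 17 sterol synthesis genes (top) and 8 fatty acid synthesis genes (bottom) on each array, after subtraction of each gene's mean over 47 arrays, for shRNA cells (left) and vector cells (right) by time and dose in cGy; points are arrays and bars are group means. Sterol gene means were 0.14 to 0.23 in shRNA groups and 0.49 to 0.64 in vector groups at 24 h, and below 0 in all groups at 2 and 6 h.

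The same mean over the 8 tested fatty acid genes varied less with time and more between replicates, with an SD of 0.0864. It was 0.11 in untreated shRNA cells at 24 h and -0.10 at 2 h, and 0.23 in untreated vector cells at 24 h and -0.07 at 2 h. At 6 h it was -0.07 and -0.05 in shRNA cells and -0.02 and -0.05 in vector cells, for 10 and 100 cGy in that order. Of the 17 sterol genes, 14 had their highest group mean in untreated vector cells at 24 h, and of the 9 measured fatty acid genes 3 did, namely Elovl6, Scd2 and Fads1. Between its lowest and highest group mean a sterol gene moved by 0.49 (Tm7sf2) to 2.44 (Fdft1) on the log2 scale, and a fatty acid gene by 0.40 (Fasn) to 1.11 (Scd2). Srebf1, Srebf2 and Scap moved by 0.40, 0.33 and 0.26.

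**Figure D2:**
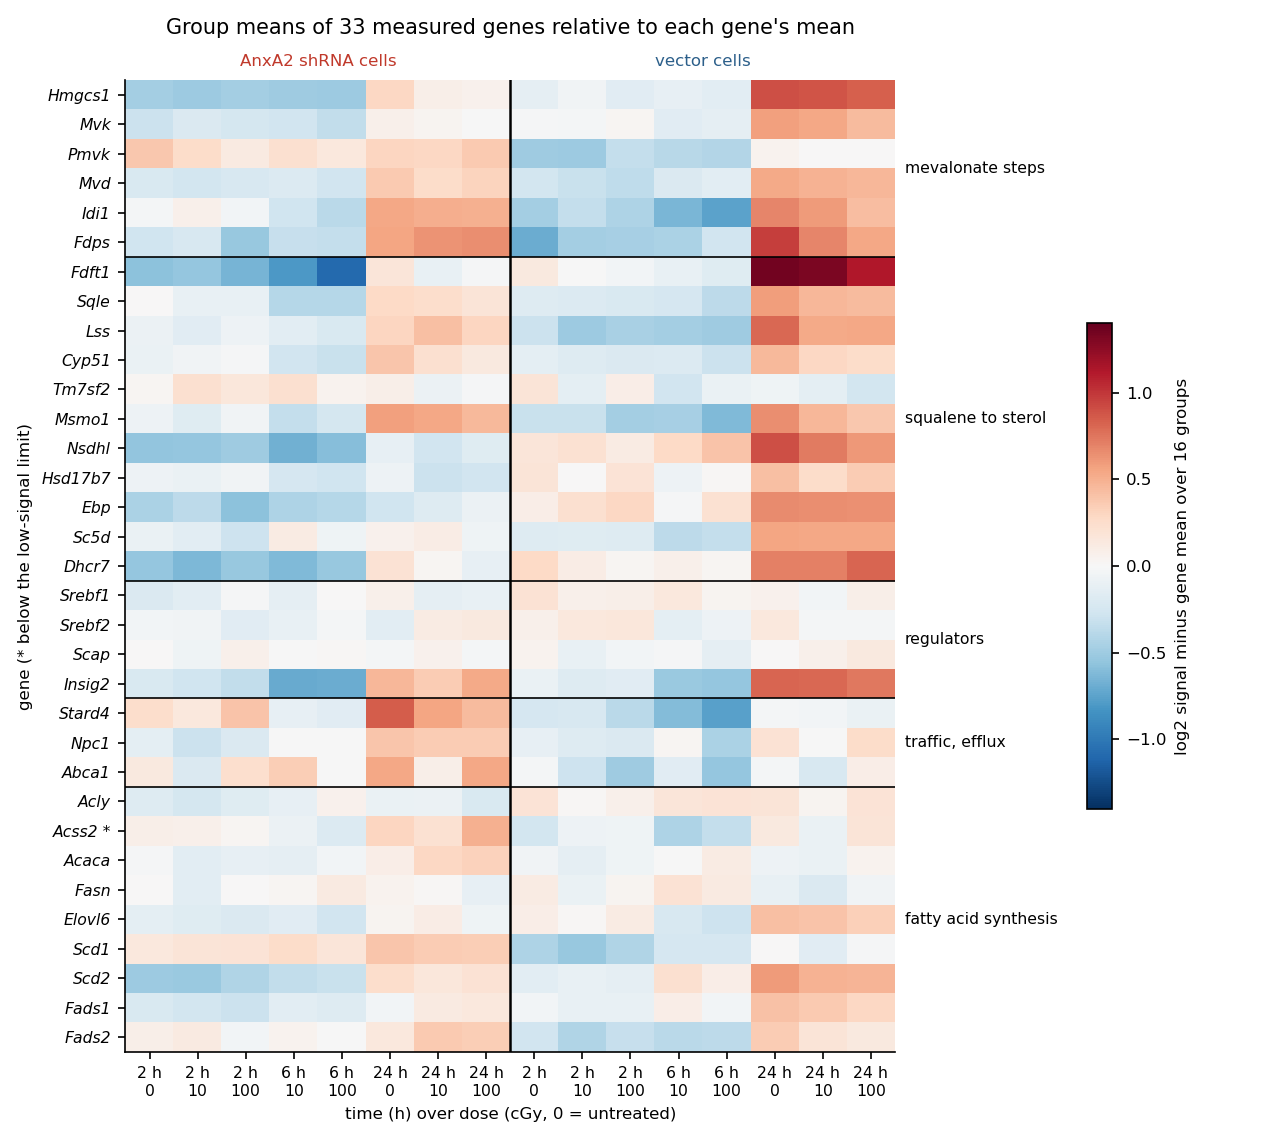
Group mean log2 signal of the 33 measured genes minus each gene's mean over the 16 groups, with shRNA groups left and vector groups right, ordered by time and dose in cGy, and genes ordered by role. Most sterol synthesis genes and Insig2 are highest in the vector groups at 24 h, with Fdft1 spanning 2.44 between its lowest and highest group, while Srebf1, Srebf2 and Scap span 0.40 or less.

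In untreated cells, 24 h against 2 h, 16 of the 32 tested genes rose in shRNA cells and none fell, where 19.2% of all tested genes passed in either direction, 10.1% rose and 9.14% fell. In vector cells 21 of 32 rose and none fell, where 25.9% passed in either direction, 13.0% rose and 12.9% fell. Of the 17 sterol synthesis genes, 12 rose in shRNA cells and 15 in vector cells, with mean log2 differences over the 17 of 0.42 and 0.76, medians of 0.44 and 0.74, and medians over all tested genes of 0.02 in each line. Differences, standard errors and p-values are from limma fitted to all 47 arrays, with Benjamini-Hochberg adjustment over all tested genes and a threshold of 0.05. Without the 4 arrays of raised Gapdh difference 17 genes rose in shRNA cells, and 22 rose and 1 fell in vector cells. The share of all tested genes was not taken in that fit.

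Idi1, the isomerase that makes dimethylallyl diphosphate, had log2 signals of 9.52, 9.38 and 9.36 in shRNA cells at 24 h and 8.75, 8.81 and 9.00 at 2 h, a rise of 0.57 (SE 0.091, adjusted p = 1.49e-05). In vector cells it had 9.60, 9.52 and 9.56 at 24 h and 8.37, 8.31 and 8.53 at 2 h, a rise of 1.16 (SE 0.091, adjusted p = 2.17e-12), or 2.23-fold. The 24 h arrays lay above the 2 h arrays in each line, and at 2 h the vector arrays lay below the shRNA arrays.

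Fdps, the farnesyl diphosphate synthase, had 8.75, 8.98 and 8.42 in shRNA cells at 24 h and 7.64, 7.97 and 8.04 at 2 h, a 1.78-fold rise (log2 0.83, SE 0.208, adjusted p = 0.00341). In vector cells it had 9.21, 8.83 and 9.37 at 24 h and 7.52, 7.80 and 7.09 at 2 h, a 3.17-fold rise (log2 1.67, SE 0.208, adjusted p = 1.01e-07), the largest among the 32 genes in this comparison. Its arrays did not overlap between the times, although its replicates were more scattered than those of Idi1. The other mevalonate genes also rose in vector cells, by 1.03 for Hmgcs1 (HMG-CoA synthase), 0.78 for Mvd (mevalonate diphosphate decarboxylase), 0.59 for Mvk (mevalonate kinase) and 0.55 for Pmvk (phosphomevalonate kinase). In shRNA cells Hmgcs1, Mvd and Mvk rose by 0.76, 0.58 and 0.37, and Pmvk had a difference of -0.08 (adjusted p = 0.76).

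Among the genes from squalene onward, Fdft1, the squalene synthase, had 7.78, 7.42 and 7.62 in shRNA cells at 24 h and 6.98, 6.87 and 6.75 at 2 h, a rise of 0.74 (SE 0.122, adjusted p = 2.36e-05). In vector cells Fdft1 had 8.80, 8.73 and 8.84 at 24 h and 7.53, 7.45 and 7.77 at 2 h, a rise of 1.21 (SE 0.122, adjusted p = 1.04e-09). Its vector arrays were above its shRNA arrays at each time, and the times did not overlap within a line. Lss, the lanosterol synthase that closes the sterol rings, had 7.53, 7.32 and 7.51 in shRNA cells at 24 h and 7.13, 7.11 and 6.98 at 2 h, a rise of 0.38 (SE 0.0895, adjusted p = 0.00186). In vector cells Lss had 7.96, 8.09 and 7.81 at 24 h and 6.78, 6.85 and 6.93 at 2 h, a rise of 1.10 (SE 0.0895, adjusted p = 5.11e-12). The order of the lines turned for Lss, with vector cells lower at 2 h and higher at 24 h.

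Sqle (squalene epoxidase), Msmo1 (a sterol C4-methyl oxidase), Nsdhl (a C4-decarboxylating dehydrogenase), Cyp51 (the lanosterol demethylase) and Dhcr7 (the last reductase of the pathway) rose in both lines. Their differences were 0.27, 0.65, 0.44, 0.49 and 0.74 in shRNA cells, and 0.77, 0.96, 0.74, 0.60 and 0.43 in vector cells. Sc5d, the lathosterol desaturase, and Ebp, the sterol isomerase, rose in vector cells by 0.74 and 0.57 and had 0.15 and 0.17 in shRNA cells, which did not pass the test. Tm7sf2, a sterol reductase, had 0.06 in shRNA cells and -0.24 in vector cells, and Hsd17b7, a sterol ketone reductase, had 0.00 in shRNA cells and 0.24 in vector cells, all 4 without passing. The call for Sqle in shRNA cells was lost when any 1 of 3 of its 6 arrays was left out, and that for Dhcr7 in vector cells when any 1 of 4 of 6 was left out. The call for Cyp51 in shRNA cells was lost with the mean of all probe sets (0.23, adjusted p = 0.115).

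Insig2, the measured member of the pair that retains SCAP, had 8.53, 8.38 and 8.36 in shRNA cells at 24 h and 7.66, 7.79 and 7.80 at 2 h, a 1.60-fold rise (log2 0.68, SE 0.128, adjusted p = 0.000165). In vector cells Insig2 had 8.83, 8.68 and 8.81 at 24 h and 7.84, 7.74 and 8.03 at 2 h, a 1.87-fold rise (log2 0.91, SE 0.128, adjusted p = 9.91e-07). All 24 h arrays were above all 2 h arrays, and the 2 other Insig2 probe sets also rose in both lines. The transcripts of the pathway's own transcription factors did not pass the test. Srebf1 had 0.27 in shRNA cells (adjusted p = 0.14) and -0.15 in vector cells (adjusted p = 0.435), and Srebf2 had -0.10 and 0.07 (adjusted p = 0.684 and 0.749), with 95% intervals that reached at most 0.52 for Srebf1 and 0.36 for Srebf2. Scap had -0.03 and -0.04.

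Stard4, a soluble carrier that moves cholesterol between membranes, had 8.68, 8.21 and 8.61 in shRNA cells at 24 h and 8.06, 7.91 and 7.72 at 2 h, a rise of 0.60 (SE 0.143, adjusted p = 0.002). In vector cells it had 7.53, 7.90 and 7.45 at 24 h and 7.47, 7.15 and 7.64 at 2 h, a difference of 0.21 that did not pass (adjusted p = 0.307). The vector arrays of the 2 times overlapped, and the shRNA arrays did not. Npc1, which exports cholesterol from lysosomes, rose by 0.53 in shRNA cells and had 0.32 in vector cells (adjusted p = 0.158), and the shRNA call was lost without any 1 of 3 of its 6 arrays. Abca1, the cholesterol efflux pump, had 0.40 in shRNA cells (adjusted p = 0.0895) and 0.00 in vector cells (adjusted p = 0.988).

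Of the 8 tested fatty acid genes, 1 rose in shRNA cells and 5 in vector cells, with mean differences of 0.21 and 0.29. Scd2, a stearoyl-CoA desaturase, had 10.53, 10.39 and 10.39 in shRNA cells at 24 h and 9.74, 9.75 and 9.55 at 2 h, a rise of 0.76 (SE 0.0724, adjusted p = 4.97e-10). In vector cells Scd2 had 10.74, 10.86 and 10.73 at 24 h and 10.06, 10.07 and 9.96 at 2 h, a rise of 0.75 (SE 0.0724, adjusted p = 4.18e-10). The Scd2 arrays separated completely by time in each line. The related desaturase Scd1 had 0.25 in shRNA cells (adjusted p = 0.103) and rose by 0.44 in vector cells (adjusted p = 0.002). Fads2 and Fads1, desaturases of polyunsaturated fatty acids, and Elovl6, an elongase, rose in vector cells by 0.63, 0.46 and 0.33 and had 0.07, 0.17 and 0.18 in shRNA cells without passing. The Elovl6 call was lost without any 1 of 4 of its 6 arrays and with the mean of all probe sets (0.20, adjusted p = 0.174). The remaining tested fatty acid genes did not pass in either line. Acly (ATP citrate lyase) had 0.09 in shRNA cells and -0.01 in vector cells, Acaca (acetyl-CoA carboxylase) 0.11 and -0.03, and Fasn (fatty acid synthase) 0.03 and -0.21. The summed signal of adipocyte markers moved with time beside these genes, and the single markers were not read by time. Of the 4 measured only Fabp4, a fatty acid carrier, was above the low-signal limit, with Adipoq, Cidec and Lep below it, and the linear signal summed over the 4 was 99.58 to 184.9 at 24 h and 43.21 to 102.6 at 2 and 6 h over both lines. The summed signal of the 5 measured leukocyte markers moved the other way in shRNA cells, with 250 to 304.9 at 24 h and 306.2 to 418 at 2 and 6 h. In vector cells it was 228.3 to 270.2 at 24 h and 211.5 to 308.1 at 2 and 6 h. Of the 5, Cd14 and Cd3e were above the limit, and Ptprc, Cd68 and Itgam were below it. The part of either list in these results was not tested.

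**Figure D3:**
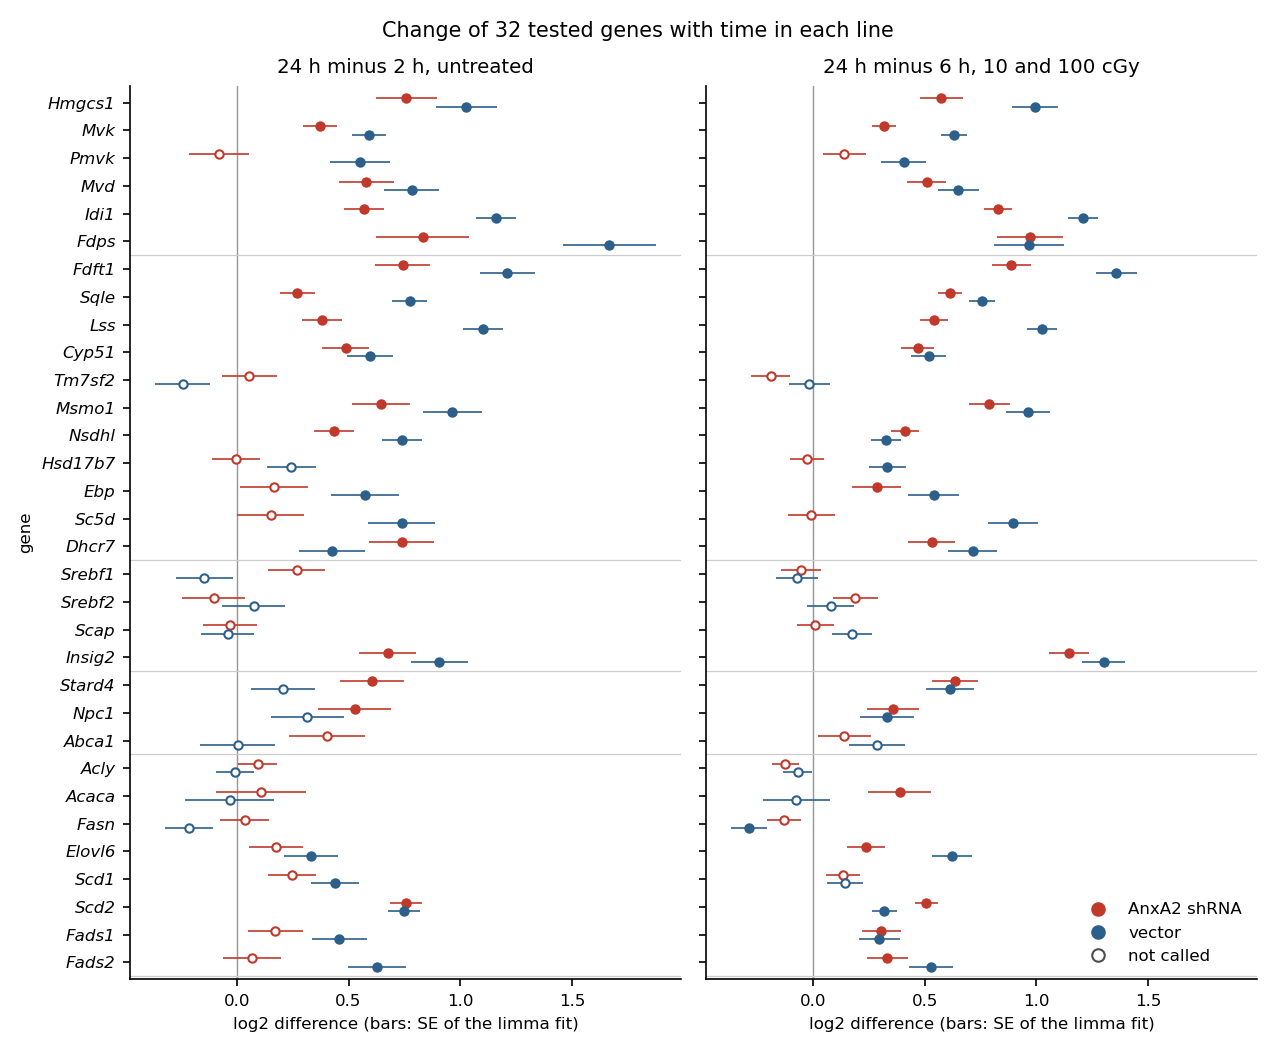
Log2 difference of the 32 tested genes between 24 h and 2 h in untreated cells (left) and between 24 h and 6 h in irradiated cells (right), with shRNA cells above vector cells in each row, filled points for an adjusted p under 0.05 and bars for the standard error. In the left panel 12 of 17 sterol synthesis genes rose in shRNA cells and 15 in vector cells; in the right panel 13 and 16 did.

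No untreated sample at 6 h was among the samples analysed here, so the 6 h level could be compared with other times only in irradiated cells, as the mean of the 10 and 100 cGy groups. At 24 h against 6 h, 21 of 32 genes rose in shRNA cells and none fell, where 39.2% of all tested genes passed in either direction, 20.7% rose and 18.6% fell. In vector cells 23 rose and 1, Fasn, fell, where 39.0% passed in either direction, 22.4% rose and 16.5% fell. Of the 17 sterol genes 13 rose in shRNA cells and 16 in vector cells, with mean differences of 0.45 and 0.72.

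Insig2 was the gene with the largest rise in shRNA cells. Its shRNA arrays ranged between 8.25 and 8.55 at 24 h and between 6.98 and 7.49 at 6 h, a 2.21-fold rise (log2 1.15, SE 0.0906, adjusted p = 1.15e-12). Its vector arrays ranged between 8.66 and 8.83 at 24 h and between 7.34 and 7.51 at 6 h, a 2.46-fold rise (log2 1.30, SE 0.0961, adjusted p = 9.25e-14). A wide gap separated the times in each line. In shRNA cells the sterol genes with the smallest adjusted p were Idi1 (0.83), Sqle (0.61), Fdft1 (0.89), Lss (0.54), Msmo1 (0.79) and Fdps (0.97). In vector cells they were Idi1 (1.21), Lss (1.02), Fdft1 (1.36), Sqle (0.76), Mvk (0.63) and Msmo1 (0.96), each with an adjusted p of 2.98e-10 or less. Hmgcs1, Mvd, Cyp51, Nsdhl, Ebp and Dhcr7 rose in both lines, by 0.28 to 0.57 in shRNA cells and 0.33 to 0.99 in vector cells. Mvk also rose in shRNA cells, by 0.32, and Fdps and Sc5d in vector cells, by 0.97 and 0.90. Pmvk and Hsd17b7 rose in vector cells by 0.41 and 0.33 and had 0.14 and -0.03 in shRNA cells. Tm7sf2 had -0.19 in shRNA cells and -0.02 in vector cells, again without passing.

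Stard4 rose in both lines, by 0.64 in shRNA cells (SE 0.101, adjusted p = 3.28e-06) and 0.61 in vector cells (SE 0.107, adjusted p = 1.33e-05), and Npc1 rose by 0.36 and 0.33. The Npc1 calls depended on single arrays. In shRNA cells the call was lost without 10 cGy 24 h replicate 3, with an adjusted p of 0.0632, and in vector cells without any 1 of 6 of 11 arrays. In the 10 cGy arrays alone the vector difference of Npc1 turned to -0.03 (adjusted p = 0.933). Abca1 had 0.14 in shRNA cells (adjusted p = 0.382) and 0.29 in vector cells (adjusted p = 0.07), Srebf1 had -0.05 and -0.07, and Srebf2 had 0.19 and 0.08, none past the test. Among the fatty acid genes Scd2, Fads1, Fads2, Elovl6 and Acaca rose in shRNA cells by 0.51, 0.31, 0.33, 0.24 and 0.39. In vector cells Scd2, Fads1, Fads2 and Elovl6 rose by 0.32, 0.30, 0.53 and 0.62, while Fasn had 8.84, 8.58, 8.88, 8.87 and 8.84 at 24 h and 8.90 to 9.26 at 6 h and fell by 0.28 (SE 0.081, adjusted p = 0.00466). All vector arrays of Fasn at 24 h were below all those at 6 h, and without vector 10 cGy 24 h replicate 3 its adjusted p was 0.0656. The Fads1 call in vector cells was lost without vector 10 cGy 24 h replicate 1 (adjusted p = 0.117). In shRNA cells those of Elovl6 and Ebp were lost without any 1 of 6 arrays, and that of Acaca without any 1 of 4. Scd1 had 0.13 in shRNA cells and 0.14 in vector cells, without passing.

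Between 6 h and 2 h fewer genes differed. In irradiated shRNA cells 2 genes rose and 6 fell, where 21.5% of all tested genes passed, with 9.51% falling, and in irradiated vector cells 3 rose and 4 fell, where 16.7% passed, 8.90% rising and 7.82% falling. Taken in either direction, these counts are close to the background and are not a result about the list. The share of members that fell was above that of all tested genes, more so in shRNA cells. Of the 17 sterol synthesis genes, 4 fell and none rose in shRNA cells, and 1 fell and 1 rose in vector cells. Whether the falls exceeded the background was not tested. Idi1, Insig2 and Stard4 fell in both lines, by 0.34, 0.39 and 0.41 in shRNA cells and by 0.31, 0.36 and 0.38 in vector cells. Stard4 arrays lay between 7.42 and 7.58 in shRNA cells at 6 h and between 7.73 and 8.30 at 2 h, and between 6.77 and 7.26 in vector cells at 6 h and between 7.16 and 7.61 at 2 h. The shRNA arrays of Stard4 did not overlap, and the vector arrays overlapped slightly. In vector cells Insig2 was higher on the 2 h replicate 3 arrays (8.20 and 8.16) than on the others (7.49 to 7.64), and without the replicate 3 arrays at 2 h its difference was -0.16 (adjusted p = 0.102). With the mean of all probe sets Idi1 in vector cells had -0.19 (adjusted p = 0.0806), and in the 10 cGy arrays alone Stard4 in shRNA cells had -0.27 (adjusted p = 0.285).

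In shRNA cells Fdft1, Sqle and Cyp51 also fell, by 0.35, 0.29 and 0.26. The 10 cGy 6 h replicate 1 array of Fdft1, one of those with a raised Gapdh difference, stood at 7.12 beside 6.42 and 6.36. In vector cells Elovl6 fell by 0.33. The genes that rose were Acly (0.18) and Scd2 (0.14) in shRNA cells and Scd2 (0.27), Scd1 (0.24) and Nsdhl (0.18) in vector cells. Most of these small rises depended on single arrays, with the call lost in 7 of 12 and 6 of 12 leave-one-out fits for Acly and Scd2 in shRNA cells, and in 5 of 12 and 9 of 12 for Scd1 and Nsdhl in vector cells. Srebf1 had 0.02 in both lines, Srebf2 0.04 in shRNA cells and -0.25 in vector cells, and Abca1 0.16 and 0.04, without passing. The choice of baseline decided the size of this comparison. With the untreated 2 and 24 h groups averaged as the baseline in place of irradiated cells at 2 h, 15 genes were lower in shRNA cells and 20 in vector cells and none higher, with mean sterol differences of -0.32 and -0.47. Under that baseline 23.7% of all tested genes passed in shRNA cells, 9.64% higher and 14.1% lower, and 24.5% in vector cells, 9.81% higher and 14.7% lower. That baseline holds the high 24 h level.

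Whether time acted alike in both lines was tested as the change in shRNA cells minus the change in vector cells. For 24 h against 2 h in untreated cells, 4 genes passed, all lower, where 5.69% of all tested genes passed, 2.97% higher and 2.72% lower. They were Lss (-0.72, SE 0.127, adjusted p = 0.000207), Sqle (-0.50, SE 0.109, adjusted p = 0.00302), Idi1 (-0.59, SE 0.129, adjusted p = 0.00304) and Pmvk (-0.63, SE 0.189, adjusted p = 0.0398). The 4 genes are all sterol synthesis genes, and their rise over time was smaller in shRNA cells, or for Pmvk not past the test there. Over the 17 sterol genes the mean of this difference was -0.34, with 15 of 17 negative where 49.6% of all tested genes were, and over the 8 fatty acid genes it was -0.09, with 4 of 8 negative. The Pmvk call was lost in 10 of 12 leave-one-out fits, with differences between -0.75 and -0.53. Without the 4 arrays with a raised Gapdh difference 8 genes passed, all lower and all of sterol synthesis. The share of all tested genes was not taken in that fit, so the larger count is not read as a stronger result. Srebf1 had 0.41 (adjusted p = 0.186), Srebf2 -0.18, Stard4 0.40 (adjusted p = 0.285), Scd1 -0.19 and Abca1 0.40.

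For 24 h against 6 h in irradiated cells 8 genes passed, all lower, where 10.1% of all tested genes passed in either direction, 3.94% higher and 6.20% lower. Sc5d had the largest difference. Its shRNA arrays lay between 7.52 and 7.76 at 24 h and between 7.48 and 7.92 at 6 h, and its vector arrays between 8.10 and 8.17 at 24 h and between 7.08 and 7.47 at 6 h. The shRNA arrays overlapped across time and the vector arrays were far apart, giving a difference of -0.90 (SE 0.155, adjusted p = 7.05e-05). Lss (-0.48, SE 0.0923, adjusted p = 0.00034), Idi1 (-0.38, SE 0.0938, adjusted p = 0.00575), Mvk (-0.31, SE 0.0788, adjusted p = 0.0067) and Fdft1 (-0.47, SE 0.126, adjusted p = 0.012) followed. Hsd17b7 (-0.36, adjusted p = 0.0331), Elovl6 (-0.39, adjusted p = 0.039) and Hmgcs1 (-0.42, adjusted p = 0.0475) were closer to the threshold and were lost in 10, 13 and 17 of 23 leave-one-out fits. Idi1 and Lss passed for both spans of time, in separate sets of arrays. Over the 17 sterol genes the mean was -0.27, with 15 of 17 negative where 56.3% of all tested genes were, and over the 8 fatty acid genes it was 0.02. Srebf1 had 0.02, Srebf2 0.11, Stard4 0.02, Scd1 -0.01 and Abca1 -0.15, none past the test.

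Leaving out single arrays brought this count to between 5 and 8. It was 5 without shRNA 10 cGy 24 h replicate 2, vector 100 cGy 6 h replicate 1, vector 100 cGy 24 h replicate 1 or 2, vector 10 cGy 6 h replicate 3 or vector 10 cGy 24 h replicate 1, each left out in turn. In the 10 cGy arrays alone 3 genes passed and in the 100 cGy arrays alone 2, with sterol means of -0.32 and -0.22. The share of all tested genes was not taken in the fits of this kind or in those without single arrays. For 6 h against 2 h none of the 32 genes passed this test of the lines in limma, where 2.85% of all tested genes did, 1.34% higher and 1.51% lower. An unadjusted p under 0.05 was reached by 5 of the 32, where 15% of all tested genes reached it. Nsdhl was nearest (-0.29, SE 0.0895, adjusted p = 0.0722).

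Genes with several probe sets did not all give the same answer, as a fit of all 13965 single-symbol probe sets above the limit showed, which was added after the data had been seen. For Hmgcs1 the probe set in use gave -0.42 for the line difference at 24 h against 6 h, and the 3 other probe sets gave 0.06, -0.03 and 0.09 with adjusted p of 0.864 or more. For Fdft1 the other bright probe set gave -0.06 (adjusted p = 0.808) for 24 h against 6 h but -0.52 (adjusted p = 0.0222) for 24 h against 2 h, where the probe set in use gave -0.47 without passing. The 2 dim Fdft1 probe sets, with means of 4.60 and 4.62, gave no call for any time comparison in either line at 24 h. For Lss a dimmer probe set, with a mean of 4.92, gave 0.06 for 24 h against 2 h (adjusted p = 0.915), and for Sc5d a probe set with a mean of 4.53 gave -0.10 (adjusted p = 0.665). The other Idi1 probe set gave -0.52 (adjusted p = 0.223) for 24 h against 2 h and -0.45 (adjusted p = 0.0904) for 24 h against 6 h. The other Hsd17b7 probe set gave -0.41 (adjusted p = 0.00948) for 24 h against 6 h, and the other Mvk probe set -0.14 (adjusted p = 0.501). For Scd2 the other 2 probe sets gave rises of 1.10 and 1.43 in shRNA cells and 0.21 and 0.11 in vector cells at 24 h against 6 h. Over all comparisons, an additional probe set of a called gene was read beside the call 177 times, and its difference had the same sign in 160 cases and the opposite sign in 17.

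**Figure D4:**
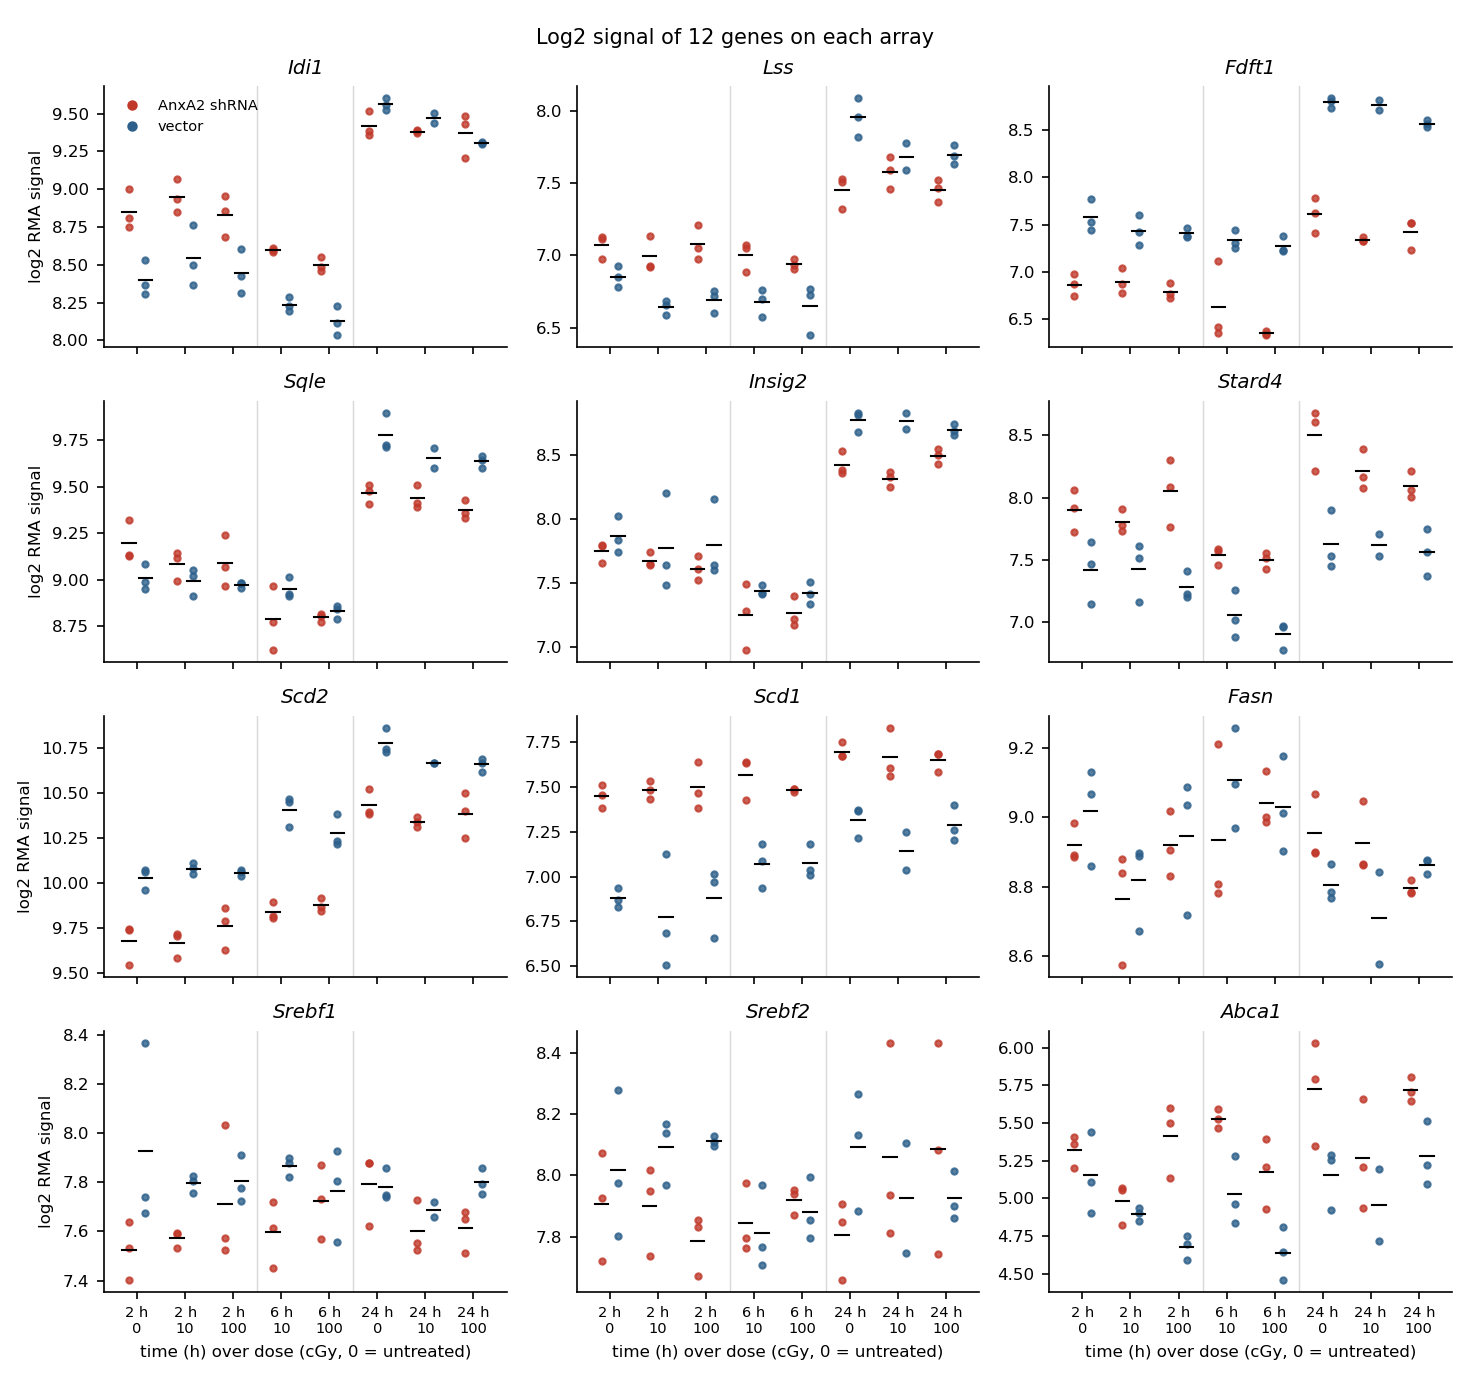
Log2 signal of 12 genes on every array, shRNA cells left of vector cells at each time and dose in cGy, with points for arrays and bars for group means. Idi1, Lss, Fdft1, Sqle and Insig2 step up at 24 h in both lines, Stard4 lies higher in shRNA cells throughout, and Srebf1 and Srebf2 show no step in either line.

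The lines themselves, shRNA against vector, differed in many genes. With both untreated times together 5 genes were higher and 12 lower in shRNA cells, where 48.2% of all tested genes passed, 24.1% in each direction. At 2 h 5 were higher and 9 lower (33.8% of all tested genes passed, 16.3% higher and 17.5% lower), at 6 h in irradiated cells 10 were higher and 9 lower (49.8% passed, 25.3% higher and 24.5% lower), and at 24 h 3 were higher and 15 lower (39.3% passed, 19.4% higher and 19.9% lower). The counts over both untreated times and at 2 and 6 h are not far above the background and are not a result about the list. At 24 h, 10 of 17 sterol synthesis genes were lower and none higher, where 19.9% of all tested genes were lower. The mean sterol difference was -0.07 at 2 h, -0.10 at 6 h and -0.42 at 24 h, and the mean fatty acid difference -0.04, -0.03 and -0.12.

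Genes of the same pathway went in opposite directions between the lines. Nsdhl had 7.93, 7.92 and 7.96 in shRNA cells and 9.02, 8.81 and 9.03 in vector cells at 24 h, and was 2.02-fold lower (log2 -1.02, SE 0.0895, adjusted p = 7.1e-12). Fdft1 was 2.27-fold lower at that time (log2 -1.18, SE 0.122, adjusted p = 3.99e-10), with the arrays given above. Neither gene's arrays overlapped between the lines. Both were also lower at 2 h, where Nsdhl had -0.71 and Fdft1 -0.72, and at 6 h, where they had -0.97 and -0.81. With both untreated times together Nsdhl had -0.86 and Fdft1 -0.95. The 2 dim Fdft1 probe sets, with means of 4.60 and 4.62, gave 0.07 each at 24 h (adjusted p = 0.724 and 0.755). At 6 h they gave 0.14 and 0.02 (adjusted p = 0.249 and 0.885). The other bright Fdft1 probe set had the same sign as the one in use. Hmgcs1, Mvk, Ebp and Dhcr7 were lower at all 3 times, with -0.62, -0.50, -0.95 and -0.51 at 24 h. The Hmgcs1 call at 2 h was lost without any 1 of the 6 arrays, the Ebp call at 2 h without shRNA untreated replicate 1, with an adjusted p of 0.0505, and the Mvk call at 6 h without shRNA 100 cGy replicate 3. With the mean of all probe sets Mvk at 2 h was -0.15 (adjusted p = 0.135).

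On the probe sets in use, Lss was higher in shRNA cells at 6 h (0.31) and lower at 24 h (-0.50), and Sc5d likewise had 0.38 at 6 h and -0.50 at 24 h. The other Lss probe set above the limit gave 0.06 at 24 h (adjusted p = 0.799), and with the mean of all Lss probe sets the 24 h difference was -0.13 (adjusted p = 0.24). The other Sc5d probe set gave -0.01 at 6 h and 0.01 at 24 h (adjusted p = 0.906 and 0.961), and the Sc5d call at 6 h was lost in the 100 cGy arrays alone (0.28, adjusted p = 0.157). Sqle was lower at 24 h (-0.31), and Hsd17b7 was lower at 6 and 24 h (-0.23 and -0.49), the 6 h call being lost without shRNA 100 cGy replicate 1. Tm7sf2 and Msmo1 were higher at 6 h (0.32 and 0.25), the Msmo1 call being lost in 3 leave-one-out fits. Idi1 was higher by 0.45 at 2 h (adjusted p = 0.000138) and 0.37 at 6 h (adjusted p = 8.54e-06), and its -0.14 at 24 h did not pass. Pmvk had 5.89, 5.90 and 5.88 in shRNA cells and 5.24, 4.80 and 4.99 in vector cells at 2 h, a difference of 0.88 (SE 0.134, adjusted p = 1.86e-06). Its shRNA arrays at 2 h were nearly equal and lay above all vector arrays. It was also higher at 6 h (0.59, adjusted p = 2.28e-06), and at 24 h it had 0.24 (adjusted p = 0.151). The Sc5d call at 24 h was lost without vector untreated replicate 3.

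Stard4 was the member with the largest positive difference at 24 h, with 8.68, 8.21 and 8.61 in shRNA cells and 7.53, 7.90 and 7.45 in vector cells, 1.83-fold higher (log2 0.88, SE 0.143, adjusted p = 4.65e-06). It was also higher at 2 h (0.48, adjusted p = 0.00797) and at 6 h (0.54, adjusted p = 2.4e-05), although its other probe set gave 0.09 at 6 h (adjusted p = 0.704), and the 2 h call was lost without shRNA replicate 1 or vector replicate 2. Abca1 had 6.03, 5.35 and 5.79 in shRNA cells and 5.29, 5.25 and 4.92 in vector cells at 24 h, a difference of 0.57 (SE 0.168, adjusted p = 0.00627). The Abca1 arrays did not overlap, but the call was lost without shRNA replicate 1 or vector replicate 3. At 6 h Abca1 was higher by 0.52 (adjusted p = 0.000354), and at 2 h it had 0.17 (adjusted p = 0.483). Insig2 was lower at 24 h (-0.35, adjusted p = 0.0269), a call lost in 4 of 6 leave-one-out fits.

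The desaturases Scd1 and Scd2 moved in opposite directions. Scd1 had 7.75, 7.67 and 7.67 in shRNA cells and 7.22, 7.37 and 7.36 in vector cells at 24 h, 0.38 higher (SE 0.107, adjusted p = 0.00423), and it was higher by 0.57 at 2 h and 0.45 at 6 h. Scd2 was lower at 2, 6 and 24 h, with differences of -0.35, -0.49 and -0.34, each with an adjusted p of 0.000191 or less. No array of either gene overlapped between the lines in untreated cells. Acly was lower at all 3 times, with -0.37, -0.21 and -0.27, the last a call lost without vector untreated 24 h replicate 1. Fads1 and Elovl6 were lower at 24 h (-0.46 and -0.38), and Fads2 was higher at 2 h by 0.35 and at 6 h by 0.39. With the mean of all probe sets both Fads2 calls were lost, with 0.34 at 2 h (adjusted p = 0.0566) and 0.20 at 6 h (adjusted p = 0.103), and so was the Scd2 call at 2 h (-0.50, adjusted p = 0.101). The Fads2 call at 2 h was also lost in 4 of 6 leave-one-out fits, and the Elovl6 call at 24 h without shRNA replicate 3 or vector replicate 1. The other Elovl6 probe set gave -0.06 at 24 h (adjusted p = 0.826).

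Srebf1 was lower at 2 h (-0.40, adjusted p = 0.0115) and had 0.01 at 24 h (adjusted p = 0.96). Its arrays at 2 h were 7.64, 7.53 and 7.40 in shRNA cells and 7.74, 7.67 and 8.37 in vector cells, so that the vector replicate 3 array stood above the other 5. Without the replicate 3 arrays of vector cells at 2 h the difference was -0.18 (adjusted p = 0.245). Srebf2 had -0.11, 0.04 and -0.29 at 2, 6 and 24 h, without passing. Summed signals of cell type markers differed between the lines as well, but the members of a list did not move alike. The linear signal summed over 8 epithelial markers was 172.5 to 251.8 on shRNA arrays and 107.2 to 146.2 on vector arrays. Krt14 had a mean of 6.57 and 3.84 on the log2 scale, whereas Krt8 had 5.048 and 5.034 and Krt5 4.687 and 4.555. The sum of 7 mesenchymal markers was 21970 to 30660 on shRNA arrays and 15810 to 21990 on vector arrays. In that list Pdgfrb alone was lower in shRNA cells, with means of 8.63 and 8.987. Their part in the differences between the lines was not tested.

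**Figure D5:**
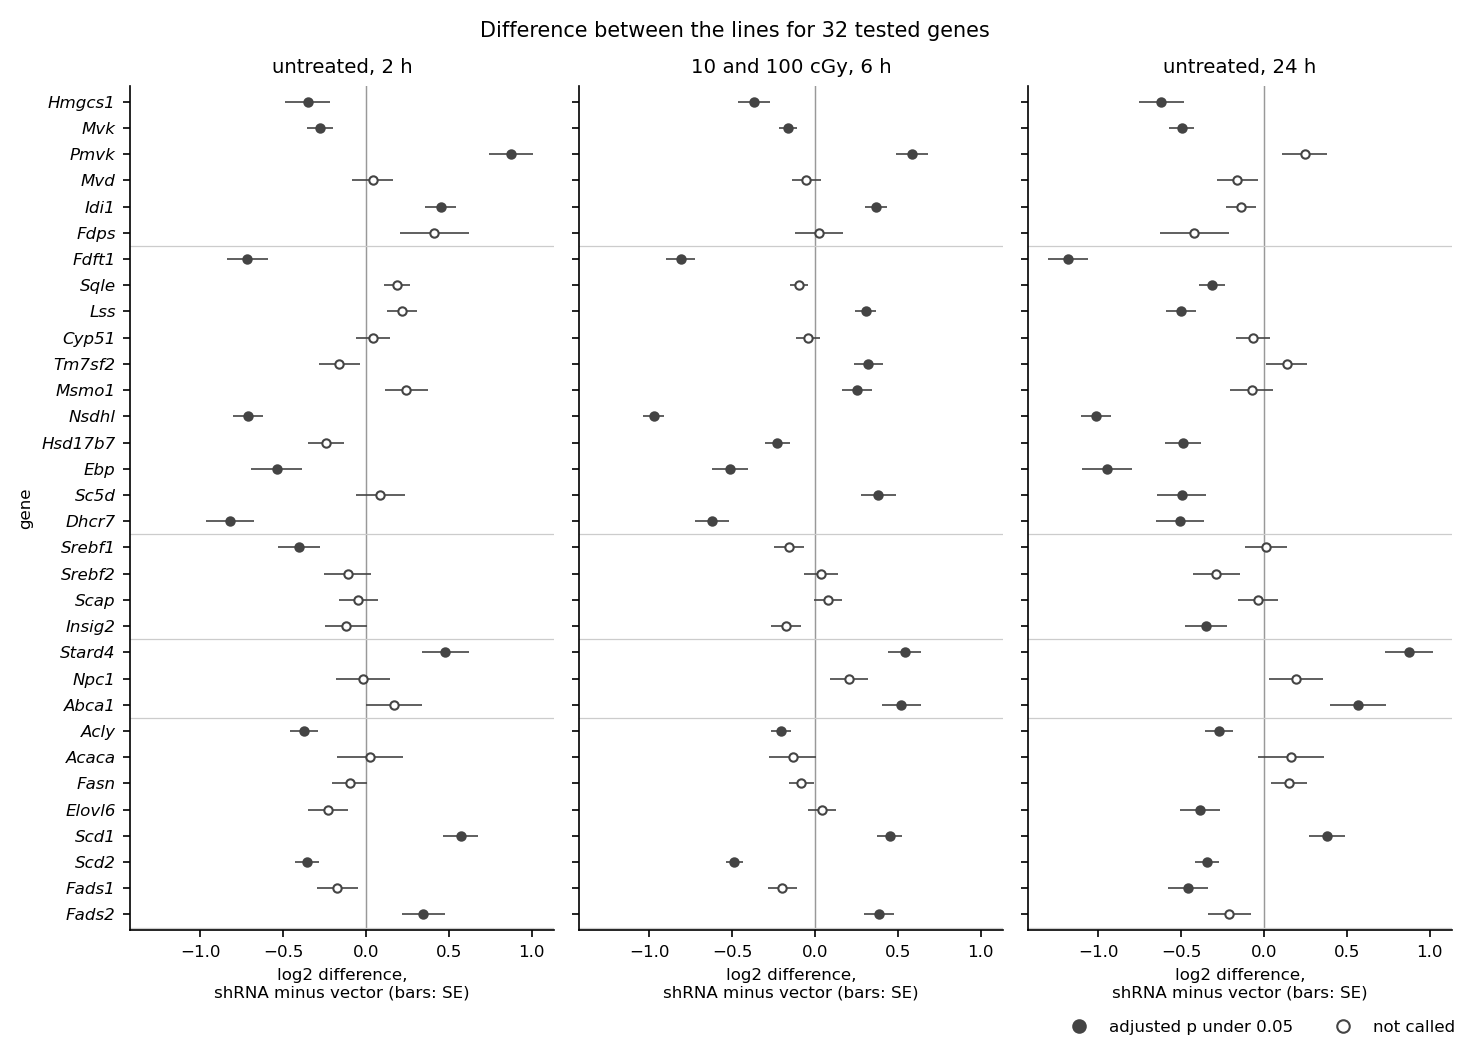
Log2 difference of the 32 tested genes, shRNA minus vector, in untreated cells at 2 h, irradiated cells at 6 h and untreated cells at 24 h, with filled points for an adjusted p under 0.05 and bars for the standard error. Fdft1 and Nsdhl lie at -0.71 or below at each time, Stard4 at 0.48 or above, and 15 genes are lower at 24 h.

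Dose was compared within each line and time. In 10 comparisons none of the 32 genes passed in limma. At 10 cGy against untreated, 0.0115% of all tested genes passed in shRNA cells at 2 h and 0% at 24 h, and 0% and 0.0115% did in vector cells. At 100 cGy against untreated, 0.0231% passed in shRNA cells at 2 h and 0.161% at 24 h, and 0.0461% and 0.0922% did in vector cells. At 6 h, 100 cGy against 10 cGy, 0% passed in shRNA cells and 0.0922% in vector cells. At 10 cGy in shRNA cells, 0 and 4 members had an unadjusted p under 0.05 at 2 and 24 h, and 3 and 1 did in vector cells. The shares of all tested genes were 4.47% and 3.88% in shRNA cells and 5.86% and 1.01% in vector cells. At 100 cGy 0 and 3 members did in shRNA cells and 1 and 5 in vector cells. The shares were then 4.18% and 6.51% in shRNA cells and 11.4% and 3.32% in vector cells. At 6 h, 100 cGy against 10 cGy, 2 members did in each line. That count is given without the share of all tested genes and is not a result about the list.

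The 5 members with the smallest unadjusted p at 100 cGy in vector cells at 24 h were sterol genes below their untreated level, although none passed, and 3.32% of all tested genes had an unadjusted p under 0.05 there. Lss had 7.63, 7.69 and 7.76 at 100 cGy and 7.96, 8.09 and 7.81 in untreated cells, a difference of -0.26 with a 95% interval of -0.44 to -0.08. Idi1 had 9.31, 9.30 and 9.31 at 100 cGy and 9.60, 9.52 and 9.56 in untreated cells, a difference of -0.26 with an interval of -0.44 to -0.07. The arrays of each gene did not overlap between the doses. Both genes were picked here for a small unadjusted p, and their intervals are not adjusted for the number of genes tested. Nsdhl had -0.30, Msmo1 -0.28 and Fdps -0.43, and the adjusted p of all 5 was 0.608 or more. At 24 h the sterol differences were negative for 13 of 17 genes in shRNA cells and 17 of 17 in vector cells at 10 cGy, and for 14 of 17 and 16 of 17 at 100 cGy, where 51.6%, 46.4%, 54.7% and 43.9% of all tested genes were negative in the same order. Their means were -0.07, -0.10, -0.09 and -0.15, and both doses share the untreated arrays. The fatty acid genes were negative in 3 of 8, 8 of 8, 5 of 8 and 5 of 8 cases in the same order. Their means were 0.06, -0.10, 0.02 and -0.05. At 10 cGy in vector cells, a group of 2 arrays, 31 of all 32 tested members were negative, so the direction there was not particular to the sterol genes. The widest 95% interval of a member at 100 cGy was -0.66 to 0.44 in shRNA cells and -0.81 to 0.65 in vector cells at 2 h, and -0.70 to 0.63 and -0.85 to 0.53 at 24 h.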

How the data were processed

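Gene expression was measured on 47 mouse Affymetrix arrays. The authors deposited log2 values for 22690 probe sets, normalised by RMA per the submitters' processing notes, and these were used without further scaling; array medians lay between 5.66 and 5.78. Precision is set by how many arrays each group has. Of the probe sets, 20380 had 1 gene symbol in the platform annotation, 691 had several and 1555 had none, and 64 were controls. Of the genes, 4956 had several probe sets. Groups came from the sample labels. limma 3.58.1 in R 4.3.3 fitted 16 group means to all arrays, with 31 residual and 5.68 prior degrees of freedom, and was tested on simulated data. Members and lists were chosen with earlier results of these data known. Named in each comparison were up to 6 called sterol genes and up to 6 other called members with the smallest adjusted p, and always Insig1, Srebf1, Srebf2, Stard4, Scd1 and Abca1 where measured; further members serve to account for the list. Alternatives were the filter, the probe set rule, median centring, a fit of the compared groups alone, a trended robust variance, a replicate block, the baseline, and leaving out arrays. Promoter windows came from RefSeq on GRCm38.p6 and were searched on both strands. Figures were drawn with matplotlib 3.10.9.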

Additional observations from a re-analysis of the deposited data

Results flagged for a closer look

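In 12 cases the effect of time differed between the lines by a test of the difference itself (limma, change in shRNA cells minus change in vector cells, log2 scale). For 24 h against 2 h in untreated cells these were Lss (-0.72), Pmvk (-0.63), Idi1 (-0.59) and Sqle (-0.50). There 5.69% of all tested genes passed, 2.72% of them lower. For 24 h against 6 h in irradiated cells these were Sc5d (-0.90), Lss (-0.48), Fdft1 (-0.47), Hmgcs1 (-0.42), Elovl6 (-0.39), Idi1 (-0.38), Hsd17b7 (-0.36) and Mvk (-0.31). In this second comparison 10.1% of all tested genes passed and 6.20% were lower. All 12 were negative, and 11 of them belong to sterol synthesis genes, with Elovl6 the exception. Of the 32 tested members 17 are sterol synthesis genes, and Lss and Idi1 are counted in both comparisons. The Pmvk call was lost in 10 of 12 leave-one-out fits. Those of Hsd17b7, Elovl6 and Hmgcs1 were lost in 10, 13 and 17 of 23. For the same contrasts, other probe sets gave 0.06, -0.03 and 0.09 for Hmgcs1, -0.06 for the bright and 0.00 and 0.01 for the dim ones of Fdft1, -0.10 for Sc5d and -0.14 for Mvk at 24 h against 6 h, and 0.06 for Lss at 24 h against 2 h, so that some of Hmgcs1 and Fdft1 and that of Lss had the opposite sign.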

How the results depend on the processing

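Of 177 calls of a member in a comparison, 116 were kept under every setting run and 61 were lost under at least 1, and 5 changed sign under at least 1. Without any member called by dose, the count stayed 0 under every setting, a replicate block included. Shares of all tested genes were taken for the main fit and the 6 h baseline only. Counts of members under the other settings therefore have no background beside them.

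With the lowest 50% of genes left out, the mean sterol difference between the lines was -0.3292 over both untreated times, -0.1364 at 2 h, -0.1736 at 6 h and -0.5221 at 24 h, that of 24 h against 2 h 0.5038 in shRNA and 0.8894 in vector cells, and that of 24 h against 6 h 0.5548 and 0.8382. With the mean of all probe sets per gene, the sterol mean was -0.3424 between the lines at 24 h, 0.3557 in shRNA cells, 0.6367 in vector cells and -0.281 for their difference at 24 h against 2 h, and 0.3967, 0.6033 and -0.2066 at 24 h against 6 h. The fatty acid mean was then -0.1168 between the lines at 6 h, and 0.2945 in shRNA cells and 0.1374 for the difference at 24 h against 6 h. Under it the difference between the lines for Lss at 24 h against 2 h was -0.21 (adjusted p = 0.366). Median centring gave sterol means of 0.06804 and 0.01965 at 10 and 100 cGy in shRNA cells at 2 h and 0.01853 at 10 cGy in vector cells at 2 h. With only the compared groups fitted, 2 members passed for the line difference at 24 h against 2 h and 5 for 6 h against 2 h in shRNA cells.

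Same-numbered replicates deviated together in 27 of 40 pairs of arrays by a correlation over 0.1 (range -0.294 to 0.72, mean 0.218). The mean for unlike numbers was -0.0987. Deviations were taken from group means, which ties the unlike-number mean to the same-number mean, so it is not a separate comparison. Since not every pair exceeded 0.1 and the labels name nothing shared, the numbers were not used as pairs, and whether they mark a shared culture or day is not known. With the replicate block as a random term (consensus correlation 0.172), 5 members passed for the line difference at 24 h against 6 h, without Elovl6, Hmgcs1 and Hsd17b7 (adjusted p = 0.0648, 0.0654 and 0.059). Without the arrays of raised Gapdh difference 8 passed for the line difference at 24 h against 2 h and 1 at 6 h against 2 h. Without vector 2 h replicate 3 the fatty acid mean at 10 cGy in vector cells at 2 h was -0.2012. Leaving out single arrays gave 5 to 8 members for the line difference at 24 h against 6 h and 0 to 1 at 6 h against 2 h, a sterol mean of -0.07883 to 0.01701 at 100 cGy in shRNA cells at 2 h, and a fatty acid mean of -0.2273 to 0.0297 at 10 cGy in vector cells at 24 h.

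Against the mean of untreated cells, 6 h had 15 members called in shRNA cells (sterol mean -0.3214, fatty acid mean -0.06288) and 20 in vector cells (-0.4702 and -0.1139). Scd2 was then -0.1982 in shRNA cells, and Nsdhl -0.1931, Scd1 -0.02595 and Scd2 -0.06139 in vector cells, reversing their sign, and with the mean of all probe sets Scd2 was -0.01733 in shRNA cells. Settings of single doses were chosen after seeing the data. At 10 cGy alone, 6 h against 2 h had 4 calls in shRNA and 2 in vector cells, the line difference at 24 h against 6 h had 3 with a sterol mean of -0.3224, and Npc1 at 24 h against 6 h in vector cells was -0.03051. At 100 cGy alone these counts were 4, 3 and 2, with a sterol mean of -0.2214. The baselines and doses hold other or fewer arrays; for the other settings the cause was not tested.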

Other observations

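A wider list of 38 genes of lipid synthesis, transport and oxidation, of which 21 were tested, was read in the same fit. Between the lines, with both untreated times together, 4 were higher and 6 lower in shRNA cells, where 48.2% of all tested genes passed, so the share called was close to the background and is not a result about the list. Pltp, a phospholipid transfer protein, was higher by 1.23 (SE 0.156, adjusted p = 2.01e-08), and Npc2, the lysosomal partner of Npc1, was lower (-0.62, adjusted p = 3.01e-14). Lpin1, a phosphatidate phosphatase, was also lower (-0.62), as was Cpt1a, the entry enzyme of mitochondrial fatty acid oxidation (-0.42). At 24 h against 6 h in irradiated cells 9 rose and 2 fell in shRNA cells, and 9 rose and 1 fell in vector cells, where 20.7% of all tested genes rose and 18.6% fell in shRNA cells, and 22.4% rose and 16.5% fell in vector cells. Lipa, the lysosomal acid lipase, rose by 0.55 in shRNA cells and 0.68 in vector cells, and Ggps1, which makes geranylgeranyl diphosphate from farnesyl diphosphate, fell by 0.27 and 0.46. At 24 h against 2 h in untreated cells 1 rose and 1 fell in shRNA cells, and 5 rose and 1 fell in vector cells, where 19.2% of all tested genes passed in shRNA cells and 25.9% in vector cells.

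The test of the line difference called 4 of the 21 at 24 h against 6 h, all lower, namely Lpin1 (-0.54), Rxra (-0.46), Erlin1 (-0.39) and Lbr (-0.33), where 10.1% of all tested genes passed and 6.20% were lower. At 24 h against 2 h it called 1, Erlin1 (-0.39), where 5.69% of all tested genes passed. At 6 h against 2 h it called 1, Npc2 (0.23), where 2.85% passed. None was called by dose in limma.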
